A study of Homo sapiens with 24 samples.

Results

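The 2 osteosarcoma lines U2-OS and SJSA-1 were compared in how their transcripts responded to 400 nM THZ2. For every gene the response of a line was the log2 intensity with THZ2 minus that with DMSO, the solvent control, and the line difference was the SJSA-1 response minus the U2-OS response. The arrays were chosen by their labels: 3 of U2-OS with DMSO, 3 of U2-OS with 400 nM THZ2, 3 of SJSA-1 with DMSO and 3 of SJSA-1 with 400 nM THZ2, which makes 12 of the 24 arrays of the series. The other 12 arrays hold both lines at 25 or 100 nM and entered the same model. Both lines are established human lines grown in the same serum-containing medium, and each received the compound or DMSO for 6 h before RNA was taken. The arrays were Affymetrix PrimeView chips, on which 1 or more probe sets read each transcript. The labels do not say whether the 3 arrays of a group came from separate cultures, so p-values measure only the spread between these arrays.

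THZ2 binds CDK7 covalently and blocks it. CDK7 is the kinase subunit of TFIIH, which marks the tail of RNA polymerase II when transcription starts, and it also activates other cyclin-dependent kinases. When transcription slows, messengers with short half-lives are lost first, among them those of immediate early genes, short-lived survival proteins and the inhibitors that NF-kB induces against itself. NF-kB is a family of dimeric transcription factors held in the cytoplasm by inhibitor proteins such as the product of NFKBIA, and many of its target genes encode chemokines or those same inhibitors. SJSA-1 carries an amplified stretch of chromosome 12 with MDM2 and CDK4, whereas U2-OS is not known for it.

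The deposited intensities came in 3 sets that share exact values inside but not across sets: all SJSA-1 arrays, the U2-OS arrays with 400 nM, and all other U2-OS arrays. Between 0.853% and 5.47% of probe sets held the same value in pairs of arrays from 1 set, against at most 0.00405% in pairs across sets. The top dose and its set therefore cannot be told apart in U2-OS, and the line and its set cannot be told apart either. For this reason the 24 arrays were quantile normalized together and only differences of at least 1 on the log2 scale were called. Correlations between arrays of a group ran from 0.988 to 0.999 and were lowest among the SJSA-1 arrays with 400 nM. The labels' extraction text names a tissue that these lines are not. Of 9 bone markers measured 8 lay above the intensity floor of 12.97 in at least 1 of the 4 groups, the exception being IBSP. Of the markers of other tissues 8 of 8 nervous, 4 of 5 blood and 5 of 6 epithelial genes lay above the floor in at least 1 group. The exceptions were PTPRC among the blood genes and CDH1 among the epithelial genes. The summed intensity of 5 blood markers ran from 122 to 133 with DMSO and from 144 to 169 with 400 nM in U2-OS, and from 111 to 124 and 161 to 185 in SJSA-1. That of 8 nervous tissue markers ran from 363 to 395 and 401 to 477 in U2-OS, and from 226 to 242 and 290 to 346 in SJSA-1. That of 6 epithelial markers ran from 241 to 265 and 376 to 407 in U2-OS, and from 158 to 196 and 284 to 328 in SJSA-1. These sums were thus higher with 400 nM in both lines, and their part in the results was not tested. MDM2 and CDK4 together summed to 7048 or more in each SJSA-1 DMSO array and to 1431 or less in each U2-OS DMSO array.

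In the sections that follow a gene "rose" or "fell" in a line where its response passed a limma adjusted p of 0.05 and was at least 1 on the log2 scale, which is 2-fold. The same rule called a line difference lower or higher in SJSA-1. Errors after ± are standard errors from the limma model, with n = 3 arrays per group, and levels are jointly normalized intensities. On arrays a lower level of a transcript in a culture and fewer cells that carry it cannot be told apart, and normalization removes any change in total RNA.

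Most falls were shared. Of 15486 genes tested, 1092 fell in SJSA-1, which is 7.05%, and 1247 fell in U2-OS, which is 8.05%. The 758 genes that fell in both lines were 69.4% of the SJSA-1 falls and 60.8% of the U2-OS falls. Of these shared falls 716, or 94.5%, had no called line difference. Rises were fewer and less even. In SJSA-1 37 genes rose, which is 0.239%, whereas 437 rose in U2-OS, which is 2.82%, and 14 genes rose in both. These counts depend on the processing. Over alternative scalings, filters, probe set summaries, pseudocounts and models, falls ran from 536 to 3867 in SJSA-1 and from 693 to 2026 in U2-OS. Rises ran from 1 to 92 in SJSA-1 and from 151 to 810 in U2-OS.

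The line difference was called lower in SJSA-1 for 315 genes, which is 2.03% of those tested, and higher for 224, which is 1.45%. The median difference over all genes tested was 0.032, and it was -0.15 with arrays centred on ribosomal protein genes and -0.335 with arrays centred on the poly-A spike-ins. Lower genes were thus 58.4% of the calls, against 81.2% with the deposited scaling (504 lower and 117 higher), 85.1% with arrays centred on ribosomal protein genes (599 and 105) and 92.3% with arrays centred on the poly-A spike-ins (1903 and 159). The balance of the directions therefore rests on the scaling, while the named differences of at least 2 kept their sign and call under every scaling tried. Apart from the fixed genes, the rule for naming required the same sign with the deposited and within-line scalings. Agreement in sign with those scalings was thus set by the choice of genes. Differences of at least 2 on the log2 scale were called for 25 genes lower and 6 genes higher. The spike-in mean (log2) was uneven within the SJSA-1 groups, at 7.695, 8.838 and 7.176 with 400 nM and 6.403, 6.898 and 7.183 with DMSO. In U2-OS it ran from 5.648 to 6 with 400 nM and from 5.422 to 5.429 with DMSO. Calls gained or lost with spike-in centring carry this spread.

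The calls fell into 3 main kinds. Of the 315 lower genes, 161 rose in U2-OS, with a median response of 1.43 there and 0.11 in SJSA-1. Another 111 fell in SJSA-1, with a median of -1.78 there and -0.31 in U2-OS, and 2 genes belong to both kinds. Of the 224 higher genes, 160 fell in U2-OS, with a median of -1.76 there and -0.37 in SJSA-1, and 8 rose in SJSA-1. In 45 lower and 56 higher genes neither line passed the rule by itself.

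**Figure D1:**
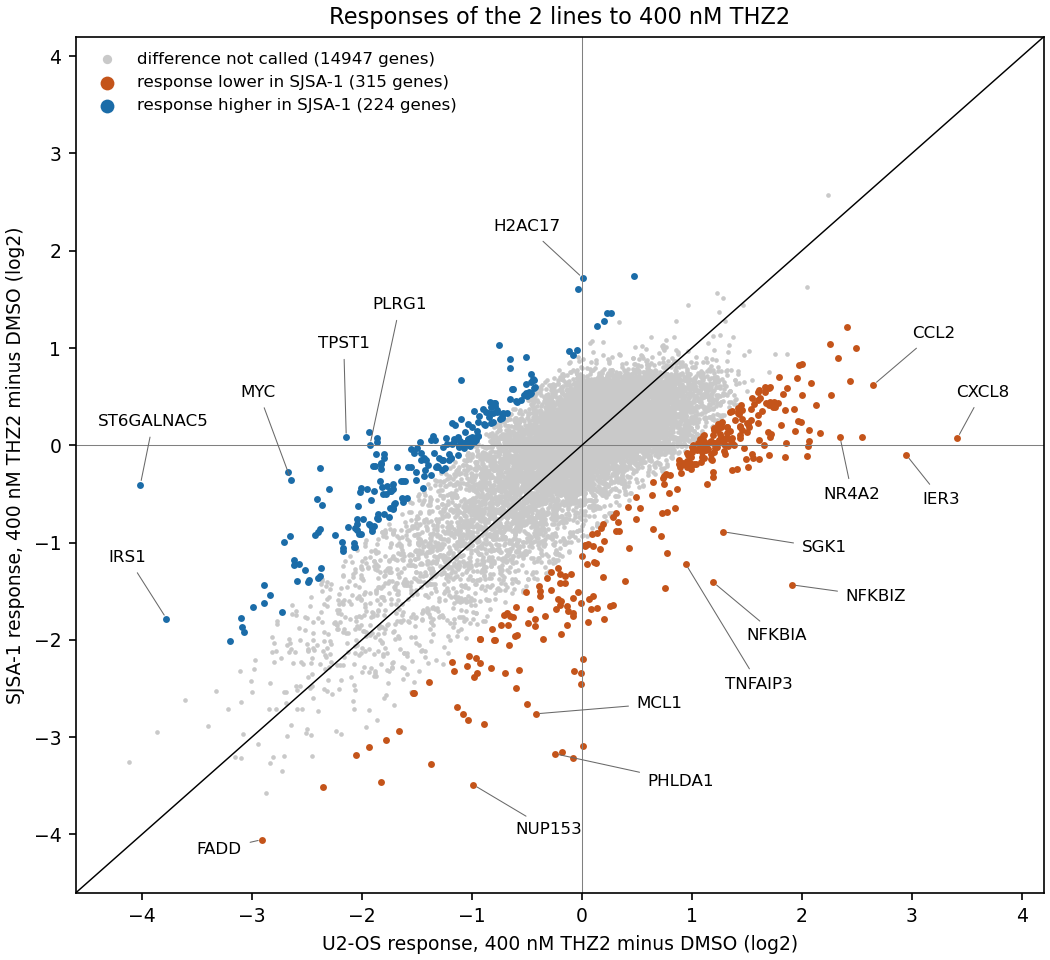
Each point is 1 of 15486 genes, with the U2-OS response to 400 nM THZ2 on the horizontal axis and the SJSA-1 response on the vertical axis, both log2; the diagonal marks equal responses. The 315 genes called lower in SJSA-1 lie below the diagonal, among them NFKBIZ, CXCL8 and IER3, and the 224 called higher lie above it, led by ST6GALNAC5.

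The NF-kB inhibitor genes NFKBIZ and NFKBIA moved in opposite directions in the lines. NFKBIZ, which encodes a nuclear member of the inhibitor family, stood at 132, 129 and 125 in the U2-OS DMSO arrays and at 508, 533 and 543 with 400 nM THZ2. In SJSA-1 it stood at 274, 233 and 262 with DMSO and at 76.5, 65.1 and 120 with THZ2. The THZ2 arrays thus lay wholly above DMSO in U2-OS and wholly below it in SJSA-1. NFKBIZ rose by 1.91 ± 0.13 in U2-OS and fell by 1.43 ± 0.13 in SJSA-1, a difference of -3.34 ± 0.18 (limma adjusted p = 4.28e-14).

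NFKBIA encodes the inhibitor that retains NF-kB in the cytoplasm and is itself an NF-kB target. Its level was 302, 288 and 288 in U2-OS with DMSO and 700, 683 and 691 with THZ2. In SJSA-1 it was 666, 834 and 888 with DMSO against 300, 278 and 286 with THZ2. Again neither pair of groups overlapped, and the SJSA-1 level with THZ2 was near the U2-OS level with DMSO. The response was 1.197 ± 0.081 in U2-OS against -1.41 ± 0.081 in SJSA-1, and the difference was -2.61 ± 0.11 (limma adjusted p = 3.82e-16). NFKBIA and NFKBIZ were the only genes of all those tested that rose in U2-OS and fell in SJSA-1 by the rule above, and none fell in U2-OS and rose in SJSA-1.

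TNFAIP3, which encodes a ubiquitin-editing enzyme that ends NF-kB signalling, showed the same order of groups with a smaller U2-OS response. Its intensities were 39.5, 38.7 and 40.2 with DMSO and 87.3, 90.3 and 94.9 with THZ2 in U2-OS. In SJSA-1 they were 91.7, 85.7 and 84.5 with DMSO and 27.6, 21.3 and 37.8 with THZ2. It fell in SJSA-1 by 1.22 ± 0.096, while its U2-OS response of 0.94 ± 0.096 stayed under the size of 1. The difference of -2.16 ± 0.14 was called (limma adjusted p = 8.04e-13), but the U2-OS DMSO level left less distance to the floor than the SJSA-1 fall.

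Of 21 measured genes on the list of NF-kB subunits and targets, 6 were called lower in SJSA-1 and none higher, against the 2.03% and 1.45% of all genes. The list median of the difference was -0.57. The other 3 lower members, named after their values were seen, were BCL3, a nuclear inhibitor homologue, at -1.65 ± 0.15, PLAU, the urokinase gene, at -1.39 ± 0.11, and PTGS2, the inducible cyclooxygenase, at -1.21 ± 0.16. PTGS2 rose in both lines, with responses of 2.26 ± 0.11 (U2-OS) and 1.04 ± 0.11 (SJSA-1). The genes of the factors themselves, and NFKBIE, were also named after the values were seen. The factors showed no called difference: RELA at -0.60, NFKB1 at -0.70, RELB at -0.45, REL at -0.45 and NFKB2 at -0.18. NFKBIE, another cytoplasmic inhibitor, fell in both lines, with responses of -1.66 ± 0.12 (U2-OS) and -1.803 ± 0.12 (SJSA-1). Averaging the probe sets of each gene left 3 of the list called, and spike-in centring called 11.

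**Figure D2:**
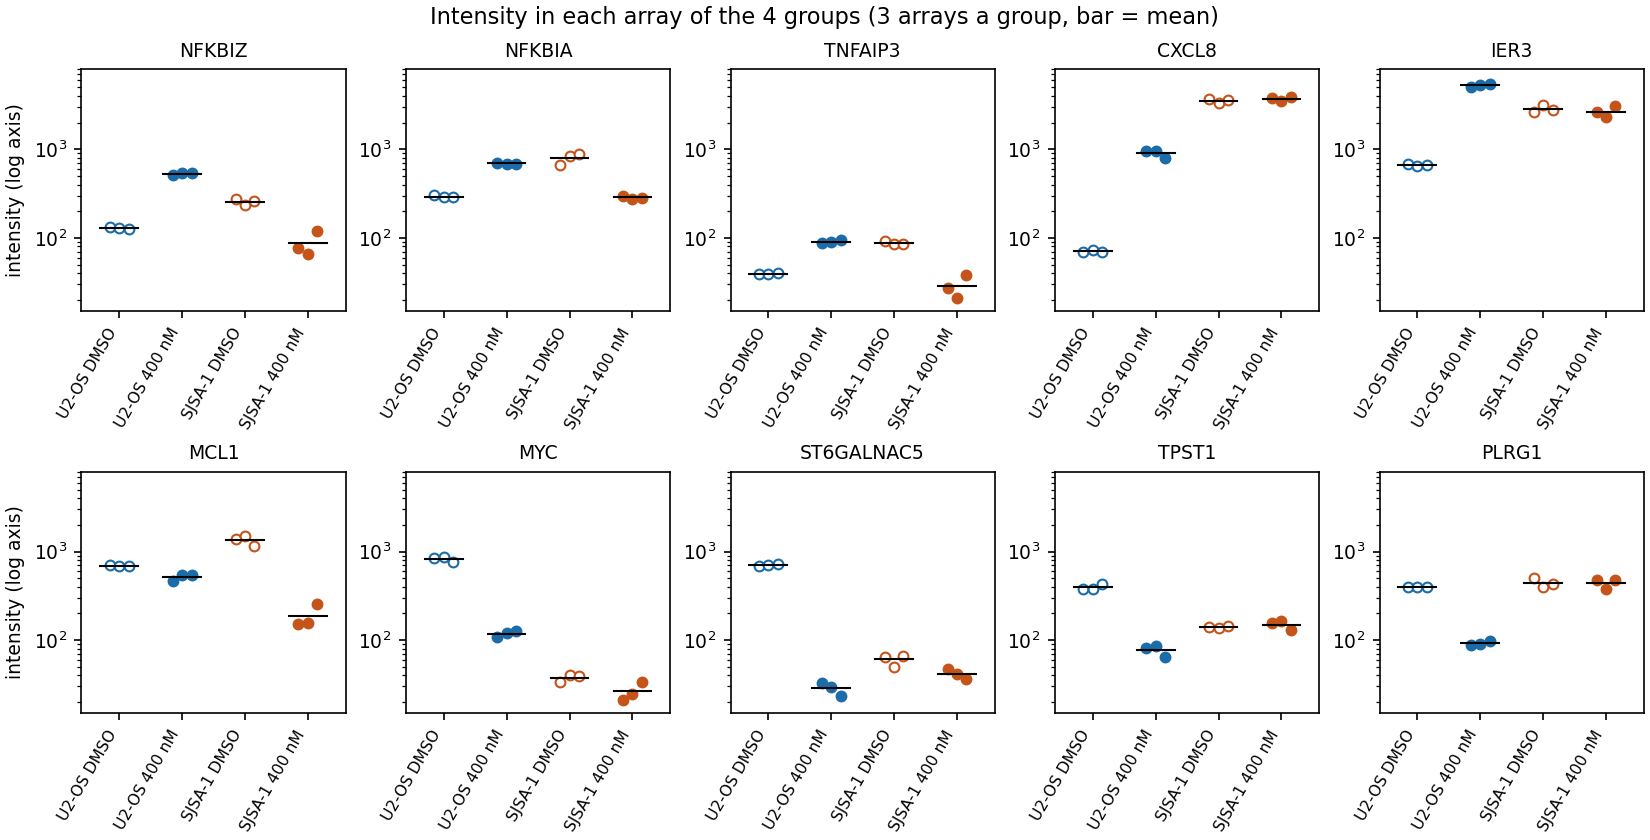
Intensity on a log axis in each of the 12 arrays for 10 genes; open points are DMSO, filled points 400 nM THZ2, U2-OS in blue and SJSA-1 in orange, and bars are means of 3 arrays. NFKBIZ and NFKBIA rise in U2-OS and fall in SJSA-1, CXCL8 and IER3 rise in U2-OS alone by the calling rule, and MYC, ST6GALNAC5, TPST1 and PLRG1 fall in U2-OS.

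The promoters of 4 leading genes are shown because each holds a short NF-kB-type motif close to its start. The motif searched was GGNNTTTCC on both strands, that is also GGAAANNCC, chosen after the values were seen, in the 250 bases upstream of the RefSeq start on GRCh38.p14. Matches are in capitals, the strand is that of the gene, and the sequences come from RefSeq. NFKBIZ lies on chr3:101827740-101827821 (plus strand), CXCL8 on chr4:73740433-73740531 (plus), NFKBIA on chr14:35404777-35404999 (minus) and TNFAIP3 on chr6:137867147-137867257 (plus).
NFKBIZ: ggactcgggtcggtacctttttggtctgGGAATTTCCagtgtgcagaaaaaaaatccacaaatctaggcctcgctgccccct
CXCL8: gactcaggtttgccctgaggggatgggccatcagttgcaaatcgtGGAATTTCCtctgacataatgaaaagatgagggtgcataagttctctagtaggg
NFKBIA: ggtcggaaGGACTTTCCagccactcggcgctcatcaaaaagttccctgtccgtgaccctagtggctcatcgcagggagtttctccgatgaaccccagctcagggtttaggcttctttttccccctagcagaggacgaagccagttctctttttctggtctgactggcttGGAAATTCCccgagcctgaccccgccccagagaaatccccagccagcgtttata
TNFAIP3: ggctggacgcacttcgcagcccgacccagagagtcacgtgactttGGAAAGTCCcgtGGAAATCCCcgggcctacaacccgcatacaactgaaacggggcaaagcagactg

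NFKBIZ and CXCL8 hold the same 9 bases, and NFKBIA and TNFAIP3 hold 2 matches each. Of 12408 tested genes with a promoter in the RefSeq table, 730 held the motif, which is 5.88%. Among the lower genes that rose in U2-OS it was found in 13 of 132, or 9.85%. Among the lower genes that fell in SJSA-1 it was found in 6 of 82, or 7.32%, and among the higher genes that fell in U2-OS in 8 of 140, or 5.71%. On the list of NF-kB subunits and targets, which was drawn up partly from known targets, 8 of 18 promoters held it. These matches describe letters in a window, and the binding of any factor was not measured here.

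A few chemokine genes rose further in U2-OS than in SJSA-1. CXCL8, which encodes the neutrophil chemokine interleukin 8, was at 68.4, 73.0 and 69.4 in U2-OS with DMSO and at 968, 947 and 807 with THZ2. In SJSA-1 it was high throughout, at 3652, 3371 and 3606 with DMSO and 3776, 3492 and 3935 with THZ2, and these groups overlapped. The response was 3.42 ± 0.080 in U2-OS against 0.075 ± 0.080 in SJSA-1, a difference of -3.34 ± 0.11 (limma adjusted p = 3.46e-18). Even after its rise CXCL8 remained lower in U2-OS than in SJSA-1 with DMSO, and its probe sets all gave a negative difference, from -3.34 to -0.84.

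CCL2, the gene of a monocyte attractant, went from 75.2, 72.4 and 70.4 to 450, 590 and 596 in U2-OS. In SJSA-1 it went from 208, 178 and 218 to 330, 269 and 360, so that both lines had THZ2 arrays wholly above DMSO. The U2-OS rise of 2.65 ± 0.11 exceeded the SJSA-1 response of 0.62 ± 0.11, with a difference of -2.03 ± 0.15 (limma adjusted p = 2.22e-11). CXCL14, a chemokine gene under the floor in SJSA-1 with DMSO, rose by 2.54 ± 0.13 in U2-OS, and only 2 of its 4 probe sets gave a negative difference. Of 24 cytokine and chemokine genes tested 5 were called lower and none higher, against 2.03% and 1.45% of all genes. The 5 were CXCL8, CCL2, CXCL3, TNF and CCL20. TNF and CCL20, named after their values were seen, differed by -1.301 ± 0.12 and -1.14 ± 0.15. IL6, named likewise, did not follow them: its response was 0.84 ± 0.089 in U2-OS and 1.12 ± 0.089 in SJSA-1. The median difference of the list was 0.031, close to that of all genes, so its calls came from these members and not from the list as a whole.

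The immediate early list held the most lower calls of the lists examined. Of 31 tested, 13 were called lower in SJSA-1, or 41.9%, and 1, MYC, was called higher, against 2.03% and 1.45% of all genes. The list median was -0.90. In U2-OS 9 members rose and 5 fell, against 2.82% and 8.05% of all genes. In SJSA-1 2 rose and 8 fell, against 0.239% and 7.05% of all genes. IER3, which encodes a short-lived regulator of survival and NF-kB signalling, was at 686, 650 and 663 in U2-OS with DMSO and at 4991, 5356 and 5457 with THZ2. In SJSA-1 it was at 2628, 3143 and 2758 with DMSO and at 2633, 2298 and 3048 with THZ2. The U2-OS groups were far apart and the SJSA-1 groups overlapped. IER3 rose by 2.95 ± 0.078 in U2-OS and changed by -0.10 ± 0.078 in SJSA-1, a difference of -3.05 ± 0.11 (limma adjusted p = 1.05e-17).

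NR4A2, an orphan nuclear receptor gene, was near the floor except in 1 group. It stood at 20.9, 17.8 and 17.96 in U2-OS with DMSO, at 158, 185 and 144 with THZ2, and between 9.46 and 12.6 in all 6 SJSA-1 arrays. The difference was -2.27 ± 0.090 (limma adjusted p = 4.23e-17). SGK1, a serum-induced kinase gene, rose in U2-OS from 116, 126 and 109 to 295, 304 and 327. In SJSA-1 it went from 661, 643 and 508 to 310, 239 and 427, a response of -0.89 ± 0.12, short of the size rule. Its lines thus converged, and the difference was -2.18 ± 0.17 (limma adjusted p = 7.19e-11). ZFP36, which encodes a protein that destroys AU-rich messengers, rose by 1.51 ± 0.082 in U2-OS against -0.22 ± 0.082 in SJSA-1.

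The lower immediate early genes were of 3 sorts. Some rose in U2-OS and stayed within the size rule in SJSA-1, as did IER2 (1.69 against 0.14), JUNB (1.87 against 0.59), ARC (2.33 against 0.90) and MAFF (1.13 against -0.051), all named after their values were seen. EGR1, a zinc finger transcription factor gene, rose in both lines, by 2.41 ± 0.11 in U2-OS and 1.21 ± 0.11 in SJSA-1. Others fell in SJSA-1. CCN1, the gene of a secreted matrix protein, went from 1561, 1577 and 1431 to 1266, 874 and 896 in U2-OS and from 2142, 2347 and 2053 to 369, 340 and 415 in SJSA-1, a difference of -1.89 ± 0.14 (limma adjusted p = 2.24e-11). KLF10 fell by 1.66 ± 0.10 in SJSA-1 with 0.26 ± 0.10 in U2-OS, and FOSL1, an AP-1 subunit gene, fell in both lines (-3.18 ± 0.13 in SJSA-1 against -2.05 ± 0.13 in U2-OS). KLF10, FOSL1, EGR1 and FOS were likewise named after their values were seen. FOS was not called different, with a rise of 1.11 ± 0.13 in SJSA-1 and 0.63 ± 0.13 in U2-OS.

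**Figure D3:**
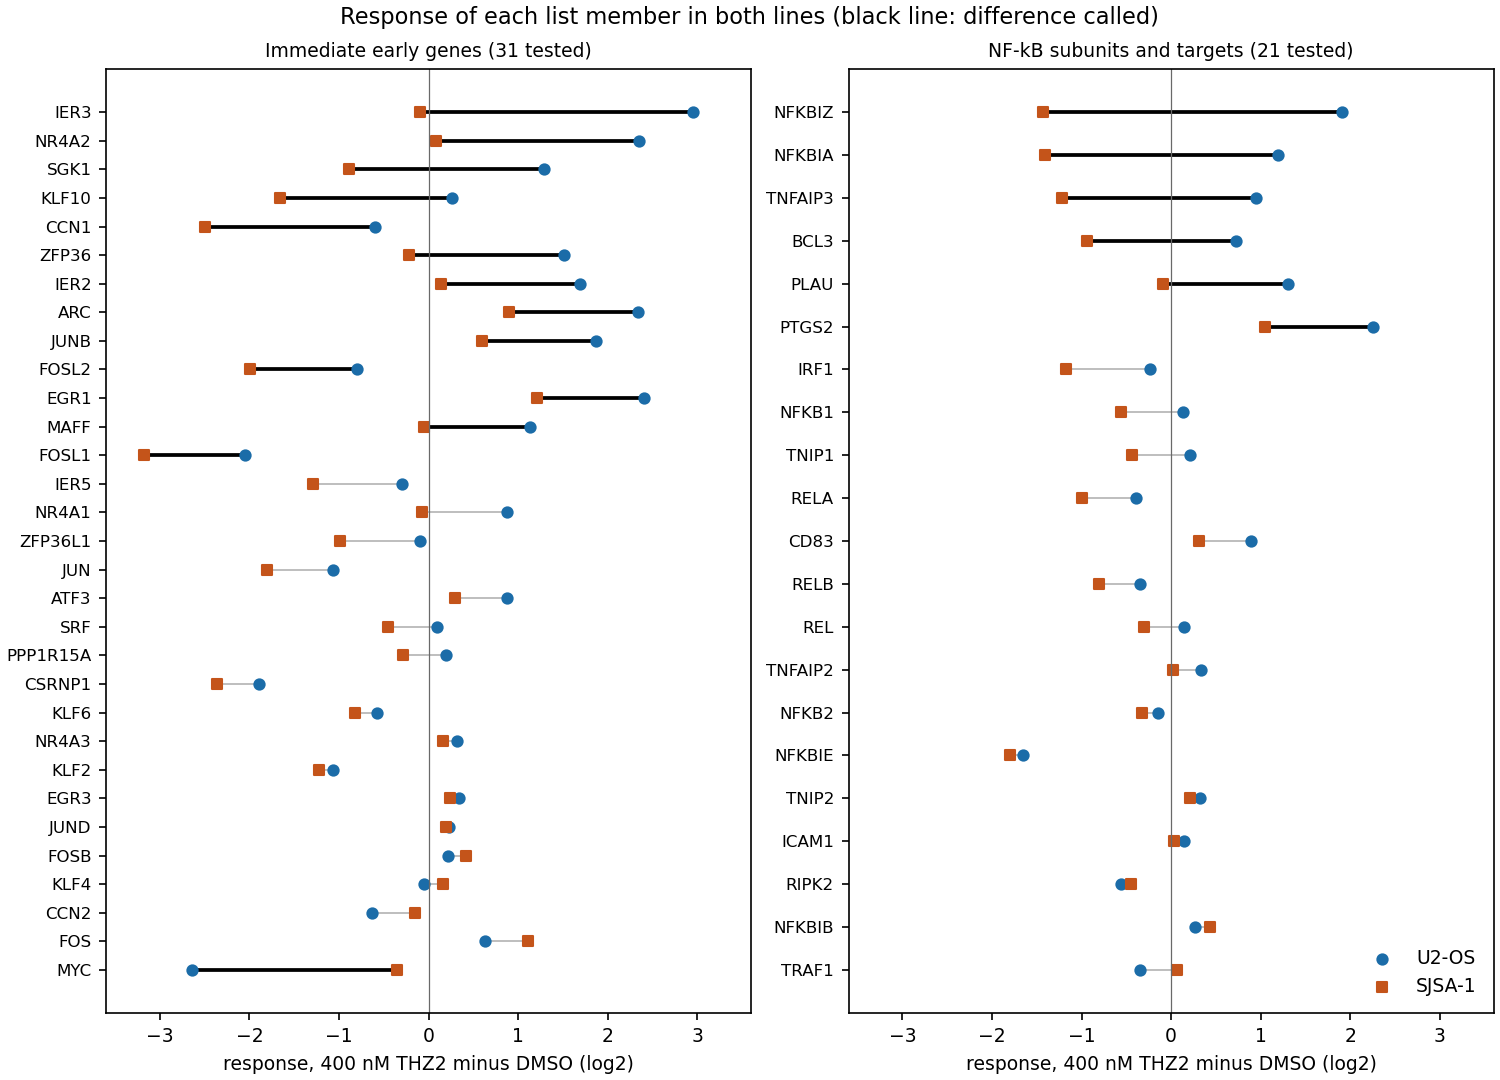
Responses to 400 nM THZ2 (log2) of the 31 immediate early genes and the 21 NF-kB genes tested, with U2-OS as circles and SJSA-1 as squares; a black bar marks a called difference. Of the called members all but MYC have the SJSA-1 square to the left of the U2-OS circle.

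Some matrix genes rose in U2-OS, and none of their list passed the rule in SJSA-1. Of 36 genes on the list of collagens and matrix 8 rose in U2-OS, against 2.82% of all genes. None rose or fell in SJSA-1, where 0.239% and 7.05% of all genes did. The difference was called lower for 6 and higher for 2, against 2.03% and 1.45% of all genes. COL11A1, a fibrillar collagen gene, went from 92.4, 96.7 and 103 to 432, 428 and 443.5 in U2-OS, while its SJSA-1 groups overlapped between 39.9 and 69.5. Its difference was -1.75 ± 0.14 (limma adjusted p = 1.17e-10), with all 7 probe sets negative. COL5A2, another fibrillar collagen gene, rose by 1.70 ± 0.12 in U2-OS with -0.099 ± 0.12 in SJSA-1, but only 4 of its 6 probe sets gave a negative difference, and the mean of its probe sets was not called. COL12A1, COL8A1 and FBN1, named after their values were seen, differed by -1.21, -1.24 and -1.24. The higher members were COL6A3, a further collagen gene named after its values were seen, at 1.04 ± 0.13 and the matrix protease gene MMP3 at 1.13 ± 0.13. MMP3 lost its call with the deposited, ribosomal and spike-in scalings and with 64 added (0.51 to 0.91).

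ISG15, an interferon-induced ubiquitin-like protein gene, went from 103, 103 and 106 to 526, 518 and 640 in U2-OS. Its SJSA-1 arrays ran from 484 to 689 with DMSO and from 659 to 1081 with THZ2, which overlap. The difference was -1.74 ± 0.17 (limma adjusted p = 6.67e-09). IFIT3, a further interferon-induced gene, differed by -1.34 (not called with 64 added, -0.66). Of 21 interferon genes 2 rose in SJSA-1 and 4 in U2-OS, against 0.239% and 2.82% of all genes. The difference was called lower for 2 of them, against 2.03% of all genes, with a list median of -0.0061. MOB3B, a gene of the MOB kinase activator family, rose from 57.9, 63.0 and 59.7 to 302, 314 and 284 in U2-OS and stayed between 17.6 and 21.8 in SJSA-1 with DMSO or 400 nM, a difference of -2.17 ± 0.095 (limma adjusted p = 3.82e-16).

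Among the genes that fell in SJSA-1, MCL1 stood out as a survival gene. It encodes a short-lived antiapoptotic member of the BCL2 family. In SJSA-1 its level was 1393, 1492 and 1148 with DMSO and 153, 156 and 257 with THZ2. In U2-OS it was 699, 685 and 683 with DMSO and 463, 538 and 537 with THZ2. The groups did not overlap in either line, but the SJSA-1 fall was 2.76 ± 0.13 against -0.42 ± 0.13 in U2-OS, and the difference was -2.34 ± 0.18 (limma adjusted p = 2.99e-11). Of its 6 probe sets 5 gave a negative difference, and the mean of the probe sets, -0.73, was not called.

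PHLDA1, a pleckstrin homology domain gene induced by growth signals, went from 328, 363 and 376 to 23.1, 21.9 and 31.4 in SJSA-1, while its U2-OS groups overlapped between 28.0 and 50.2. The difference was -2.92 ± 0.14 (limma adjusted p = 3.70e-15), with all 4 probe sets negative. NUP153, a nuclear pore basket gene, fell by 3.49 ± 0.12 in SJSA-1, from 749, 602 and 518 to 33.5, 37.7 and 51.1. In U2-OS it went from 362, 385 and 388 to 148, 202 and 204, so THZ2 was below DMSO in both lines, and the difference was -2.502 ± 0.17 (limma adjusted p = 3.38e-12). NR2C2, an orphan nuclear receptor gene, fell by 2.66 in SJSA-1 with -0.50 in U2-OS. SLC38A2, an amino acid transporter gene, fell in both lines (-3.46 in SJSA-1 against -1.83 in U2-OS).

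Of 16 feedback inhibitors of the MAP kinase pathway 8 fell in SJSA-1 and 6 in U2-OS, against 7.05% and 8.05% of all genes. The difference was called lower for 3 and higher for none, against 2.03% and 1.45% of all genes, with a median of -0.38. SPRY2, a Sprouty family inhibitor gene, went from 134, 140 and 145 to 18.5, 12.01 and 16.02 in SJSA-1 and from 25.2, 34.3 and 31.9 to 13.2, 16.5 and 15.7 in U2-OS. The dual-specificity phosphatase genes DUSP4 and DUSP5 differed by -1.81 ± 0.12 and -1.56 ± 0.14. DUSP4 was under the floor in U2-OS with DMSO, at 11.2, and all 3 genes had too low a U2-OS DMSO level to fall as far as they did in SJSA-1. DUSP1 and SPRED2, named after their values were seen, fell in both lines with no called difference, at -0.78 and -0.78.

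Several large SJSA-1 falls were of genes that U2-OS hardly showed. DKK1, which encodes a secreted Wnt antagonist, was at 496, 491 and 511 in SJSA-1 with DMSO and at 43.7, 38.2 and 37.2 with THZ2, against 7.23 to 9.29 in all 6 U2-OS arrays. TFAP2C, a transcription factor gene, fell from 185, 196 and 202 to 7.36, 10.2 and 8.57 in SJSA-1, at least 15-fold with the floor as the lower level, and lay under the floor in U2-OS. ZIC2, a zinc finger factor gene, and TWIST1, a factor of the mesenchymal lineage, had the same form, with SJSA-1 responses of -3.16 and -1.72. For these 4 genes the difference measures the SJSA-1 fall, since the U2-OS level had no room to fall.

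ST6GALNAC5, a sialyltransferase gene, had the largest difference of the tested genes. Its level in U2-OS was 682, 710 and 715 with DMSO and 33.1, 29.5 and 23.4 with THZ2. In SJSA-1 it was 64.4, 50.1 and 67.1 with DMSO and 47.3, 41.2 and 36.7 with THZ2, so THZ2 lay below DMSO in both lines. The response was -4.01 ± 0.10 in U2-OS against -0.40 ± 0.10 in SJSA-1, and the difference was 3.61 ± 0.14 (limma adjusted p = 3.71e-17), with all 5 probe sets positive. The SJSA-1 DMSO level was too low for a fall of that size.

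MYC, the growth-promoting transcription factor gene, fell in U2-OS from 842, 866 and 770 to 109, 120 and 127. In SJSA-1 it was low in both groups, at 33.5, 40.7 and 39.2 with DMSO and 21.1, 24.7 and 33.3 with THZ2. The difference of 2.29 ± 0.13 (limma adjusted p = 1.67e-13) again met a low SJSA-1 level. SCG5, a secretory granule protein gene, had the same form, going from 995, 971 and 986 to 185, 142 and 106 in U2-OS and from 47.0, 39.9 and 46.3 to 36.7, 33.7 and 31.6 in SJSA-1, with a difference of 2.399 ± 0.16. BCL2A1, an antiapoptotic BCL2 family gene and NF-kB target, fell by 2.38 ± 0.091 in U2-OS from 173, 186 and 182 to 19.1, 26.8 and 19.4. BCL2A1 was between 17.3 and 28.0 in the SJSA-1 arrays with DMSO or 400 nM, and 1 of its 2 probe sets gave a difference of the other sign.

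Other U2-OS falls were of genes whose SJSA-1 level left room for the same fall. PLRG1, a gene of the spliceosome's PRP19 complex, was at 401, 393 and 393 in U2-OS with DMSO and at 88.9, 91.0 and 97.3 with THZ2. In SJSA-1 it was at 509, 394 and 433 with DMSO and 479, 382 and 478 with THZ2, which overlap. Its difference was 1.93 ± 0.12 (limma adjusted p = 1.15e-12), with all 4 probe sets positive, although the mean of the probe sets was not called. TPST1, which encodes a protein tyrosine sulfotransferase, fell in U2-OS from 378, 380 and 427 to 82.0, 86.0 and 64.7, and its SJSA-1 groups overlapped between 129 and 165. The difference was 2.22 ± 0.13 (limma adjusted p = 2.34e-13).

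HNRNPDL, an RNA-binding protein gene, fell by 2.38 ± 0.11 in U2-OS against -0.86 ± 0.11 in SJSA-1, a difference of 1.52 ± 0.15. NUP37, a nuclear pore scaffold gene, fell by 1.43 ± 0.10 in U2-OS against -0.13 ± 0.10 in SJSA-1. Thus 3 of 29 nuclear pore genes were called higher and 1, NUP153, lower, against 1.45% and 2.03% of all genes. The calls of HNRNPDL and NUP37 were lost with spike-in centring (0.69 and 0.62), that of NUP37 also with 64 added (0.95). RANBP2, of the cytoplasmic face of the pore, fell by 2.42 in U2-OS with -0.92 in SJSA-1, and its difference of 1.501 was not called with spike-in centring (0.87) or with probe sets averaged (0.88). The other higher pore gene, SEH1L, differed by 1.06, and 1 of its 2 probe sets had the other sign (-0.12). The SEH1L call was lost with the deposited, ribosomal and spike-in scalings, with probe sets averaged and with 64 added. It was also lost in 3 of the fits without 1 array (lowest 0.98). IRS1, an insulin receptor substrate gene, fell in both lines, from 443.5, 472 and 468 to 17.1, 19.2 and 20.2 in U2-OS and from 72.1, 62.9 and 56.3 to 8.55, 7.78 and 5.204 in SJSA-1. Its SJSA-1 level with THZ2 was under the floor, so that fall was at least 4.92-fold, and 1 of its 3 probe sets gave a difference of the other sign. With probe sets averaged the IRS1 difference fell from 1.99 to 0.60 and was not called. Genes named as zinc finger genes by their symbol made up 10.6% of the higher genes that fell in U2-OS against 7.38% of all U2-OS falls, 5.49% of all SJSA-1 falls and 2.76% of all genes tested. The higher genes that fell in U2-OS held 17 such genes, at 4.23 to 52.35 in SJSA-1 with DMSO. None of these 17 had room in SJSA-1 for the U2-OS fall. Of 427 such genes 19 were called higher and 8 lower, against 1.45% and 2.03% of all genes.

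For many of these calls the quieter line had little to lose. A gene was counted as without room where the DMSO level of the line that moved less lay closer to the floor, on the log2 scale, than the size of the fall in the other line. Of the 160 higher genes that fell in U2-OS, 91 had no such room in SJSA-1 and 69 had it. Of the 111 lower genes that fell in SJSA-1, 58 had no room in U2-OS and 53 had it. The median DMSO level of the 160 genes was 181 in U2-OS against 64.6 in SJSA-1, and that of the 111 genes was 199 in SJSA-1 and 73.9 in U2-OS. A further 10 calls in each direction lacked room by the same measure although the other line's response was short of the size rule. Leaving out all calls without room left 247 lower and 123 higher genes. PLRG1, TPST1, HNRNPDL, NUP37, MCL1, NUP153, NFKBIZ and NFKBIA are among those left, while MYC, SCG5, ST6GALNAC5, IRS1, PHLDA1 and DKK1 are not. The rule looks only at falls, so it hardly bears on CXCL8 and IER3, whose differences came from U2-OS rises. Room to rise was not examined.

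**Figure D4:**
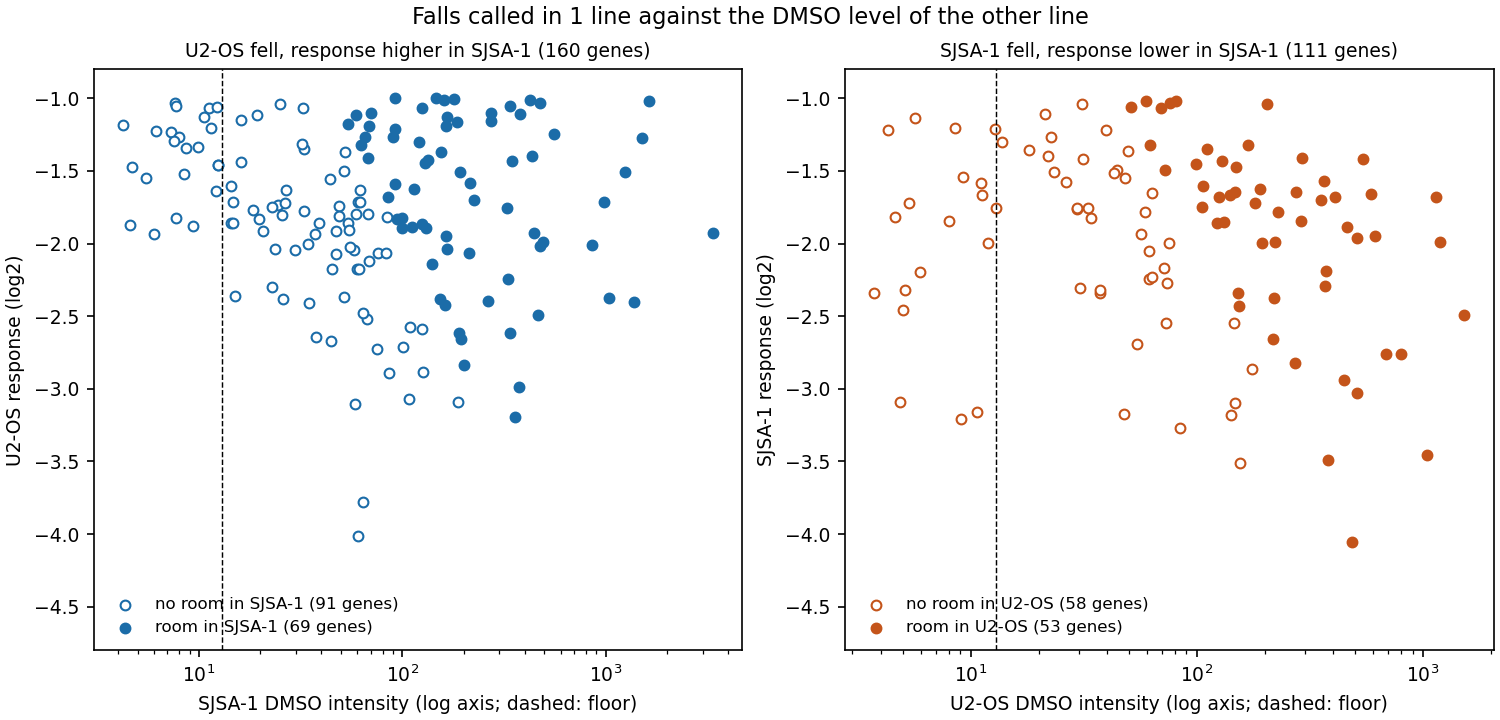
Left, the U2-OS response of the 160 genes that fell in U2-OS and were called higher in SJSA-1, against their SJSA-1 DMSO intensity (log axis); right, the SJSA-1 response of the 111 genes that fell in SJSA-1 and were called lower, against their U2-OS DMSO intensity. Open points are the 91 and 58 genes whose level in the other line was too near the floor, drawn as a dashed line at 12.97, to fall as far.

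Of the 8 genes that rose in SJSA-1 with a higher response there, 3 were replication-dependent histone genes. H2AC17 went from 29.7, 40.1 and 37.5 to 175, 147 and 141 in SJSA-1 and lay between 5.75 and 7.03 in all U2-OS arrays, a difference of 1.71 ± 0.11 (limma adjusted p = 2.64e-12). H2AC8 had the same form, with a difference of 1.64 ± 0.13. The calls of H2AC17 and H2AC8 were lost with spike-in centring (0.86 and 0.79). H2BC15 was called at 1.12, a call lost with ribosomal (0.98) and spike-in (0.50) centring and with 64 added (0.78). These genes encode core histones from near-identical copies, so a probe set may read more than 1 of them. Of 33 histone genes tested 4 rose in SJSA-1 and 1 in U2-OS, against 0.239% and 2.82% of all genes. The difference was called higher for 3 and lower for none, against 1.45% and 2.03% of all genes, and its median was 0.22. SERPINF1, which encodes a secreted antiangiogenic factor, rose in SJSA-1 from 68.0, 59.6 and 68.0 to 148, 145 and 157. In U2-OS SERPINF1 went from 26.5, 25.0 and 22.4 to 8.34, 7.56 and 8.51, where the THZ2 level lay under the floor, so that its U2-OS level was at least 1.90-fold lower. Its fitted difference was 1.78 ± 0.10 (limma adjusted p = 9.13e-14), which takes the values under the floor as measured.

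The target of the compound and its partners on the list had differences from -0.83 to 1.07. CDK7 fell in both lines, from 547, 571 and 567 to 95.5, 131 and 112 in U2-OS and from 470, 417 and 483 to 136, 156 and 119 in SJSA-1. Its difference of 0.54 ± 0.13 passed the adjusted p (limma, 0.00145) but not the size of 1, and was -0.11 with spike-in centring. CDK13, an elongation kinase gene, fell by 2.07 ± 0.099 in U2-OS with -0.999 ± 0.099 in SJSA-1, and its difference of 1.07 fell under the size of 1, to between 0.81 and 0.97, with the deposited, median-centred, ribosomal and within-line scalings and array weights. It was 0.68 with 64 added before the log and 0.47 with probe sets averaged, and the SJSA-1 level had no room for the U2-OS fall. CDK12, the related kinase gene, went the other way, at -0.046 ± 0.089 in U2-OS and -0.88 ± 0.089 in SJSA-1. POLR2A, the gene of the largest RNA polymerase II subunit, had a response of 0.62 ± 0.11 in U2-OS and -0.11 ± 0.11 in SJSA-1. Of 21 transcription kinases and partners, CDK13 alone was called, which is 4.76% higher and none lower, against 1.45% and 2.03% of all genes. The list median was -0.069. CDK12 was called as well with the deposited (-1.08), ribosomal (-1.14) and spike-in (-1.33) scalings, and POLR2A with spike-in centring (-1.41) and array weights (-1.05).

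Of the other fixed genes MDM2, the p53 ubiquitin ligase gene, differed by -0.90 ± 0.23 and was called without the third SJSA-1 array with 400 nM, at -1.16, and with ribosomal (-1.06) and spike-in (-1.52) centring. RUNX2, the osteoblast lineage factor gene, fell in SJSA-1 by 1.51 with -0.97 in U2-OS. The RUNX2 difference of -0.54 ± 0.19 was not called, and 1 of its 2 probe sets had the other sign (0.51). FADD, the death receptor adaptor gene, fell in both lines (-4.05 in SJSA-1 against -2.90 in U2-OS), and its difference of -1.15 was not called without the first U2-OS array with 400 nM (-0.96) or with probe sets averaged (-0.53), and 1 of its 3 probe sets had the other sign. CDKN1A, the p53-induced cell cycle inhibitor gene, differed by -0.50, CDK4 by 0.25 and the efflux pump gene ABCB1 by 0.16 ± 0.12 (limma adjusted p = 0.275). The signs for CDK4 and ABCB1 turned with ribosomal protein centring (-0.039 and -0.0092) and with spike-in centring (-0.61 and -0.20).

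Lists of proliferation genes held falls in both lines and at most 1 called difference each, where 8.05% of all genes fell in U2-OS and 7.05% in SJSA-1. The difference was called lower for 2.03% and higher for 1.45% of all genes, and at that share lists of this size hold few or no calls. Of 31 mitotic genes 11 fell in U2-OS against 13 in SJSA-1, and none was called different, with a median difference of -0.23. AURKA, a mitotic kinase gene named after its values were seen, fell in both, at -2.59 (U2-OS) and -2.71 (SJSA-1). Of 33 ribosome biogenesis genes 13 fell in U2-OS and 12 in SJSA-1, with RRP9, a nucleolar RNA-binding protein gene, the 1 call (higher, at 1.05). The RRP9 call was lost with the deposited, ribosomal and spike-in scalings and with 64 added (0.37 to 0.87), and in 3 of the fits without 1 array (lowest 0.93). RRS1, a ribosome assembly gene also named after its values were seen, fell in both, at -2.71 (U2-OS) and -2.53 (SJSA-1). Of 22 genes of homologous recombination and checkpoints 4 fell in each line and none was called different. None of 51 ribosomal protein genes and none of 52 oxidative phosphorylation genes rose or fell in either line, and their median differences were 0.057 and -0.084. Of all genes 0.239% rose in SJSA-1 and 2.82% in U2-OS.

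The lower doses give values that do not rest on the separate normalization of the U2-OS arrays with 400 nM, but they share the DMSO arrays with the comparison above and are set beside it as values. At 100 nM 591 genes (3.82%) fell and 72 (0.465%) rose in U2-OS, and 735 (4.75%) fell and 74 (0.478%) rose in SJSA-1. The line difference was called lower for 111 genes (0.717%) and higher for 71 (0.458%). At 25 nM it was called lower for 1 gene (0.00646%) and higher for 3 (0.0194%). Of the NF-kB list 4 genes were called lower at 100 nM and 6 at 400 nM, of the cytokines 3 and 5, and of the immediate early genes 3 and 13. No collagen or matrix gene was called at 100 nM.

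Genes of the NF-kB group had parted by 100 nM. NFKBIZ responded by 1.38 ± 0.13 in U2-OS against -1.07 ± 0.13 in SJSA-1, and NFKBIA by 1.03 and -0.56. CXCL8 responded by 2.42 against -0.37, CCL2 by 1.87 against 0.19 and TNFAIP3 by 1.297 against -0.48. At 25 nM the U2-OS responses of NFKBIZ, NFKBIA and CXCL8 were -0.16, 0.056 and -0.065. SGK1 was higher at 100 nM than at 400 nM in both lines, at 2.05 and 1.04, and its SJSA-1 response changed sign between these doses.

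Other genes parted only at the top dose by these calls, and in U2-OS that dose cannot be told apart from its array set. MOB3B responded by -0.17 in U2-OS at 100 nM and 2.05 at 400 nM, NR4A2 by 0.41 and 2.35 and CXCL14 by 0.56 and 2.54. PLRG1 was at 0.090 and -1.93 and BCL2A1 at 0.30 and -2.38. In SJSA-1 SPRY2 responded by -0.20 at 100 nM and -2.31 at 400 nM, and CCN1 by -0.45 and -2.49. MYC differed already at 100 nM, by 1.81 ± 0.13, with a U2-OS response of -0.85 and an SJSA-1 response of 0.97. ST6GALNAC5 responded in SJSA-1 by -1.54 at 25 nM, -1.103 at 100 nM and -0.40 at 400 nM, so that its SJSA-1 response was nearest 0 at the dose where its U2-OS fall was greatest. The histone genes H2AC17 and H2AC8 had SJSA-1 responses of 1.75 and 1.69 at 100 nM, close to those at 400 nM.

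**Figure D5:**
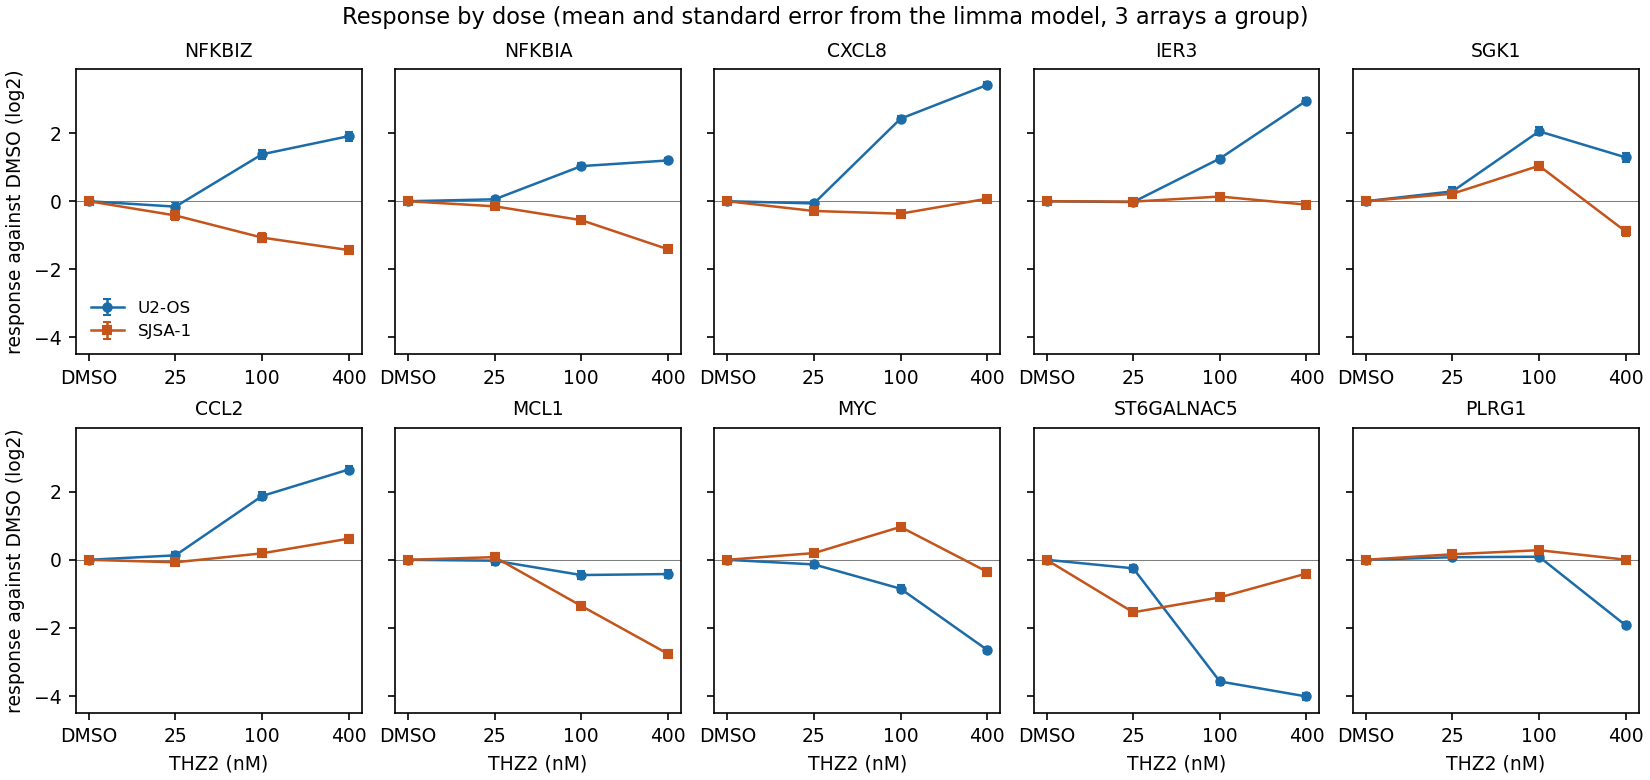
Response against DMSO (log2) at 25, 100 and 400 nM THZ2 for 10 genes, U2-OS as circles and SJSA-1 as squares, with standard errors from the limma model (3 arrays per group; all doses share the DMSO arrays of their line). NFKBIZ, NFKBIA, CXCL8 and CCL2 have parted by 100 nM, whereas PLRG1 parts at 400 nM.

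The kinds of calls also differed in the genomic span of their genes, a property the selection did not use. The median span over all genes tested was 26.4 kb. It was 50.4 kb for the 161 lower genes that rose in U2-OS, 16.8 kb for the 111 lower genes that fell in SJSA-1 and 26.5 kb for the 160 higher genes that fell in U2-OS. Of the 111 genes 40.5% spanned under 10 kb, against 25.7% of all genes. These are descriptions over genes, which are not replicates, and no test was made of them.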

How the data were processed

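Transcripts were measured on Affymetrix PrimeView arrays. The deposited values are intensity per probe set on a linear scale. MAS5 and RMA are named per the submitters' processing notes, without saying which made these values. Of 49372 probe sets the 44994 that name 1 gene were used. The 24 arrays were quantile normalized together, 16 was added, log2 was taken, and a gene was represented by its brightest probe set. A gene was kept where at least 1 group mean reached the 30th percentile (12.97), as 15486 of 18132 did. A model of 8 group means with 16 residual degrees of freedom was fitted with limma 3.58.1 in R 4.3.3 (empirical Bayes, intensity trend), with Benjamini-Hochberg adjustment over all genes and calls at 0.05 and a log2 size of 1. The fit was tested on simulated data. The number of arrays limits the precision, and an exact permutation test of 3 against 3 arrays cannot go below 0.1 two-sided.

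The members, gene lists and rules were chosen with earlier results of these data known. Genes eligible for naming were, among calls of the same sign with the deposited and the within-line scaling, the 12 largest in each direction above the floor with DMSO in both lines, the 4 largest in each direction under it in 1 line, genes called in opposite directions, at most 3 genes of the commoner direction and 1 of the rarer from each list, and 12 fixed genes. The text names part of these. Others are marked as chosen after their values were seen. List members not on the array were not analysed here. Alternatives covered scaling, filters, probe sets, pseudocounts, the model, array weights, sizes, a replicate block and each of the 12 arrays left out. Replicate numbers did not pair the arrays: 2 of 18 correlations of deviations between same-numbered arrays exceeded 0.1, and they ran from -0.63 to 0.26.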

Additional observations from a re-analysis of the deposited data

Results flagged for a closer look

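The response to 400 nM THZ2 differed between the lines, by the test of the difference itself in the limma model, for 315 genes with a lower and 224 genes with a higher response in SJSA-1. In 2 of these genes the responses were called in opposite directions within the lines: NFKBIA, with a difference of -2.61 on the log2 scale, and NFKBIZ, with -3.34. Both kept their call under each alternative tried. With each array left out in turn NFKBIA ran from -2.73 to -2.52 and NFKBIZ from -3.55 to -3.18.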

How the results depend on the processing

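No called difference of a named gene changed sign under any of the alternatives. Apart from the fixed genes, the sign with the deposited and within-line scalings was set by the naming rule. Sign changes of genes without a called difference, such as CDK4 and ABCB1, were not counted. Of 2923 pairs of a named gene and an alternative, 2655 stayed on the same side of the threshold, 252 lost the call and 16 gained it. The counts of lower and higher genes, 315 and 224, became 504 and 117 with the deposited scaling and 599 and 105 with ribosomal protein centring, and spike-in centring gave 1903 lower. They were 161 and 123 when probe sets were averaged, 707 and 525 with each probe set, 602 and 522 with 1 added before the log and 126 and 66 with 64 added. With no minimum size they were 3293 and 3799, with a minimum of 2 they were 25 and 6, and the limma test against a difference of 1 gave 80 and 37. Leaving out calls without room for the fall left 123 higher. The causes were not tested, except that a size or room rule removes calls by construction. Of the immediate early genes 13 were lower, against 21 with no minimum, 3 with a minimum of 2 and 7 with the test against 1. Of the NF-kB genes 6 were lower, against 11 with spike-in centring, 3 with the mean of probe sets, 13 with no minimum and 3 with a minimum of 2. With each array left out in turn the counts ran from 300 to 368 lower and from 206 to 262 higher, from 13 to 15 immediate early and from 6 to 7 NF-kB genes. The replicate block gave 315 lower and 224 higher and changed no other call, although the numbers do not pair the arrays. The room rule and the within-line normalization of the 12 arrays were chosen after seeing the data. Signal over background limits dim genes: 252 lower and 193 higher calls had DMSO levels above the floor in both lines.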
